A study of Homo sapiens with 12 samples.

Results

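The mitosis and spindle genes described here are 50 genes whose products carry out cell division, from the kinases and cyclins of mitotic entry to the motors, kinetochore proteins and chromosome proteins of the spindle. They were picked by gene symbol from a list, and all 50 were present among the 22545 genes of the count table. RNA was sequenced from HaCaT, a line of immortalised keratinocytes from human skin, in 12 libraries that fall into 4 groups of 3. The groups were cells given M5 with lefamulin, cells given M5 with retapamulin, cells given M5 alone, and cells given nothing (untreated). Every library, treated or not, carries WT as its genotype label, and no group received a compound without M5. The labels do not spell out M5, which in keratinocyte cultures usually means a mixture of proinflammatory cytokines that imitates psoriasis. Lefamulin and retapamulin are antibiotics of the pleuromutilin class, built on a common tricyclic core with different side chains. The sources used here give no doses, times or solvents, and nothing says that the 3 libraries of a group came from separate cultures, so p-values measure the spread between libraries, which may be technical. The labels name HaCaT as the source, but their extraction text speaks of epidermis from mice.

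Entry into mitosis is driven by cyclin-dependent kinase 1 bound to cyclins A and B, with CDC25 phosphatases removing its inhibitory phosphates and Polo and Aurora kinases acting beside it. Kinetochores tie chromosomes to spindle microtubules, the spindle assembly checkpoint holds back the anaphase-promoting complex until all are attached, and that complex then destroys securin and cyclin B. Most of these genes are transcribed in late S, G2 and M phase and are shut down in resting cells.

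Libraries held 35110519 to 37520999 counts. edgeR, which tests count differences with a model of the spread between replicates, was run on the 14207 genes that passed a low-count filter, and all 50 mitosis and spindle genes passed. Levels are given in CPM, counts rescaled to a common library total that is adjusted by edgeR's TMM factor, and a gene was called higher or lower where the Benjamini-Hochberg adjusted p over all tested genes was under 0.05. The marker levels that follow were scaled by library totals without the TMM factor. All 12 keratinocyte markers were tested. Their summed levels were 6306 to 6477 CPM in M5+lefamulin and 7109 to 7147 in M5+retapamulin libraries. They were 4478 to 4631 CPM in M5 and 5048 to 5152 in untreated libraries. Of 6 fibroblast, 6 melanocyte and 6 leukocyte markers, 2, 1 and 1 passed the filter, and the most abundant was COL1A1 with a mean of 9.81 CPM. Of 6 endothelial markers 3 were in the table. Their sum, nearly all CDH5, was 116 to 120 CPM in M5+lefamulin, 92.9 to 105 in M5+retapamulin, 117 to 123 in M5 and 15.9 to 18.6 in untreated libraries, and its part in the results was not tested.

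Mitotic promoters are known for a short element near the start, the cell cycle genes homology region (CHR), and for upstream CCAAT boxes bound by NF-Y. Of the CHR, only the letters TTTGAA and the variant TTTAAA were searched. The 120 bases before an annotated start are shown for 12 members picked by hand. They show how these letters are spaced in genes that fell strongly with the compounds (CCNA2, CCNB1, KIF20A, SPC24) and in members that did not (CDC25C, AURKB). The others shown are CCNB2, CDK1, PLK1, HMMR, ESPL1 and MKI67. CDC25B, with the largest falls against M5 and no TTTGAA in its windows, is not shown. Sequences are from RefSeq, build GRCh38.p14, written 5′ to 3′ on the gene's strand, and capitals mark TTTGAA with its variant TTTAAA and the box CCAAT read on either strand, so that TTCAAA and ATTGG are the same matches on the other strand.
CCNA2, chr4:121823884-121824003, minus strand: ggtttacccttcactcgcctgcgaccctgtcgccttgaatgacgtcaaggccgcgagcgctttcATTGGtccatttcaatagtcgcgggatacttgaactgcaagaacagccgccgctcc
CCNB1, chr5:69167030-69167149, plus strand: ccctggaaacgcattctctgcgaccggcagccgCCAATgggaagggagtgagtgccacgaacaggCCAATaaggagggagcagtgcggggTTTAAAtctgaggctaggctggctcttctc
CCNB2, chr15:59105026-59105145, plus strand: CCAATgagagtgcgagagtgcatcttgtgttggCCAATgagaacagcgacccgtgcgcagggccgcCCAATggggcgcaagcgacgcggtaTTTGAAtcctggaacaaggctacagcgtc
CDK1, start 2 of 2, chr10:60778358-60778477, plus strand: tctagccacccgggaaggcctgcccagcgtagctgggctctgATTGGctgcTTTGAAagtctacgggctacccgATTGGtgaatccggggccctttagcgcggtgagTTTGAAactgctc
PLK1, chr16:23678769-23678888, plus strand: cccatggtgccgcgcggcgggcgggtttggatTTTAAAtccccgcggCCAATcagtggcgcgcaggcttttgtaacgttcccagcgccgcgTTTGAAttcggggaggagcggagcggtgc
CDC25C, start 4 of 4, chr5:138331805-138331924, minus strand: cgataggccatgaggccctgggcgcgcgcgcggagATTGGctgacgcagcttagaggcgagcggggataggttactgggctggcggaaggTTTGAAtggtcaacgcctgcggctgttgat
KIF20A, chr5:138178992-138179111, plus strand: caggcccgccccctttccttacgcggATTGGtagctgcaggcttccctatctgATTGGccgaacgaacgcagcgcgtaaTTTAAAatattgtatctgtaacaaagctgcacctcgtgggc
HMMR, chr5:163460512-163460631, plus strand: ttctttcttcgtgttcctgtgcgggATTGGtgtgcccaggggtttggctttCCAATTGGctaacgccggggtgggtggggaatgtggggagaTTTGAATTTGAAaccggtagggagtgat
ESPL1, chr12:53268179-53268298, plus strand: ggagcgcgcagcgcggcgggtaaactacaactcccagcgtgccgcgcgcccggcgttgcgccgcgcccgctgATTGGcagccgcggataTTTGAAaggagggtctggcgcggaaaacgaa
AURKB, start 1 of 2, chr17:8210226-8210345, minus strand: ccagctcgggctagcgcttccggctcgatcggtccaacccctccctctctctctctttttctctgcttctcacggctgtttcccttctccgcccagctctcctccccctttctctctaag
SPC24, chr19:11155783-11155902, minus strand: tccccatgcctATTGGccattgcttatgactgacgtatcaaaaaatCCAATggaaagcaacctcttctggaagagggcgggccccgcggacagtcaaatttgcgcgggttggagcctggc
MKI67, chr10:128126424-128126543, minus strand: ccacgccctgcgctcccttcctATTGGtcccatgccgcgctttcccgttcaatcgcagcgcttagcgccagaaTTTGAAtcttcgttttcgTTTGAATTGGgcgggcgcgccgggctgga
CCNB1 and KIF20A held the TTTAAA form close to the start, and CCNB2, CDK1, PLK1, CDC25C, HMMR, ESPL1 and MKI67 held TTTGAA there. For a gene with several starts, the stretch printed is the first with TTTGAA in its last 60 bases, if any start has it. In CDK1 and CDC25C the match was thus fixed by the choice of start. In HMMR 2 CCAAT matches on opposite strands overlapped, and in MKI67 a TTTGAA overlapped an ATTGG. None of the letters searched lay in the AURKB stretch printed, and CCNA2 and SPC24 held CCAAT matches with no TTTGAA or TTTAAA in theirs. Other forms of the CHR were not searched, so the absence of these letters does not show that a CHR is missing.

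Windows of 250 bases before to 50 after the start were present for 43 of the 50 members, 55 windows in all. The members without a window were BIRC5, AURKA, UBE2C, TPX2, FOXM1, TTK and BUB3. TTTGAA was in 35 of the 55 windows (63.6%), against 15.2% of all 35116 windows and 10.6% of the 15945 windows of tested genes. Within the last 60 bases before the start it was in 21 windows (38.2%), against 2.98% of all windows. TTTAAA was in 29.1% of member windows, against 12.2% of all windows, and CCAAT in 70.9%, against 34.6%. A match describes letters in a window and does not show that a factor binds there.

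**Figure D1:**
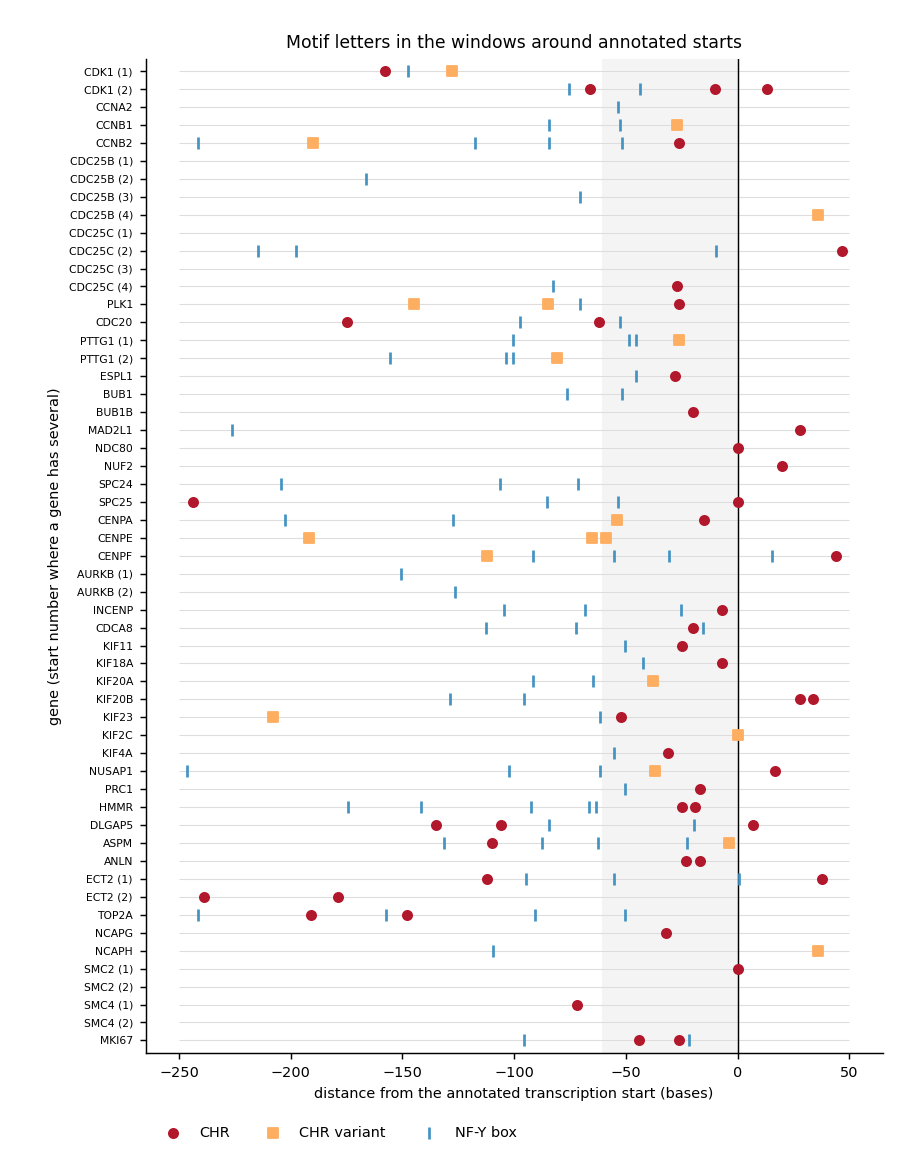
Positions of the CHR letters, their variant and the NF-Y box in the 55 windows of 43 members, as distance in bases from the annotated start (horizontal axis), with 1 line per start and the last 60 bases shaded. CHR matches gather in the shaded stretch, where 21 of 55 windows held the TTTGAA form.

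The summed level of the 50 genes was 7549 ± 113 CPM in M5+lefamulin, 6925 ± 28.1 in M5+retapamulin, 9488 ± 234 in M5 and 10428 ± 312 in untreated libraries (SD, n = 3 each). As a share of all counts, without TMM scaling, they took 0.739% ± 0.01 in M5+lefamulin, 0.637% ± 0.0063 in M5+retapamulin, 0.959% ± 0.015 in M5 and 1.14% ± 0.033 in untreated libraries. On both scales the order of the groups was the same, and no library of a group reached the range of another. In a bulk sample fewer dividing cells and less RNA per dividing cell cannot be told apart. Among the 50 genes, 36 had their group means in the order untreated, M5, M5+lefamulin, M5+retapamulin from high to low, against 2523 of all 14207 tested genes. Levels per gene length, averaged over all libraries, ran from 7.37 FPKM (a count divided by gene length and library total) for CDC25C to 179 FPKM for UBE2C, with a median of 34.3.

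With M5 alone, 36 of the 50 genes were lower and 3 higher than in untreated cells, where edgeR called 26.9% of all tested genes lower and 28.3% higher. Most of these falls were small. The median log2 fold change of the 50 was -0.21, against -0.02 over all tested genes, and 1 of the 50 fell past 1.5-fold, against 9.9% of all tested genes.

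With M5+lefamulin 41 of the 50 genes were lower and 2 higher than with M5, where edgeR called 34.3% of all genes lower and 33.6% higher. With M5+retapamulin 44 were lower and 3 higher than with M5, where 38.0% of all genes were called lower and 34.1% higher. The medians of the 50 genes were -0.34 with lefamulin and -0.47 with retapamulin, against -0.00 and -0.05 over all tested genes. Past 1.5-fold, 6 of the 50 fell with lefamulin, a share at the background of 12.1% of all tested genes, and 17 (34.0%) with retapamulin, against 17.7% of all tested genes. These 2 comparisons share the M5 libraries. The number of rises rested on single libraries. For lefamulin the number of rises was 1 without M5 replicate 1 or M5+lefamulin replicate 2 and 4 without M5+lefamulin replicate 1, and for retapamulin it was 0 without M5 replicate 1 and 1 without M5+retapamulin replicate 1.

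Scaling moves these values in a common direction. On library totals alone the median over all tested genes was -0.14 for M5 against untreated, -0.05 and -0.19 for lefamulin and retapamulin against M5, and -0.18 and -0.31 for lefamulin and retapamulin against untreated, and the medians of the 50 genes were -0.33, -0.38, -0.61, -0.74 and -0.93 in the same order. Of all genes called, the share called higher was 51.3% for M5 against untreated with TMM and 31.5% on totals, 49.9% and 38.6% for lefamulin against untreated, and 47.8% and 33.7% for retapamulin against untreated. Of the 50 genes, 46 then fell with M5 and 1 rose, 43 fell with lefamulin and 1 rose, and 46 fell with retapamulin. Of all 14207 tested genes, 5823, 5395 and 6586 fell on totals in these comparisons, and 2675, 4385 and 3942 rose.

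**Figure D2:**
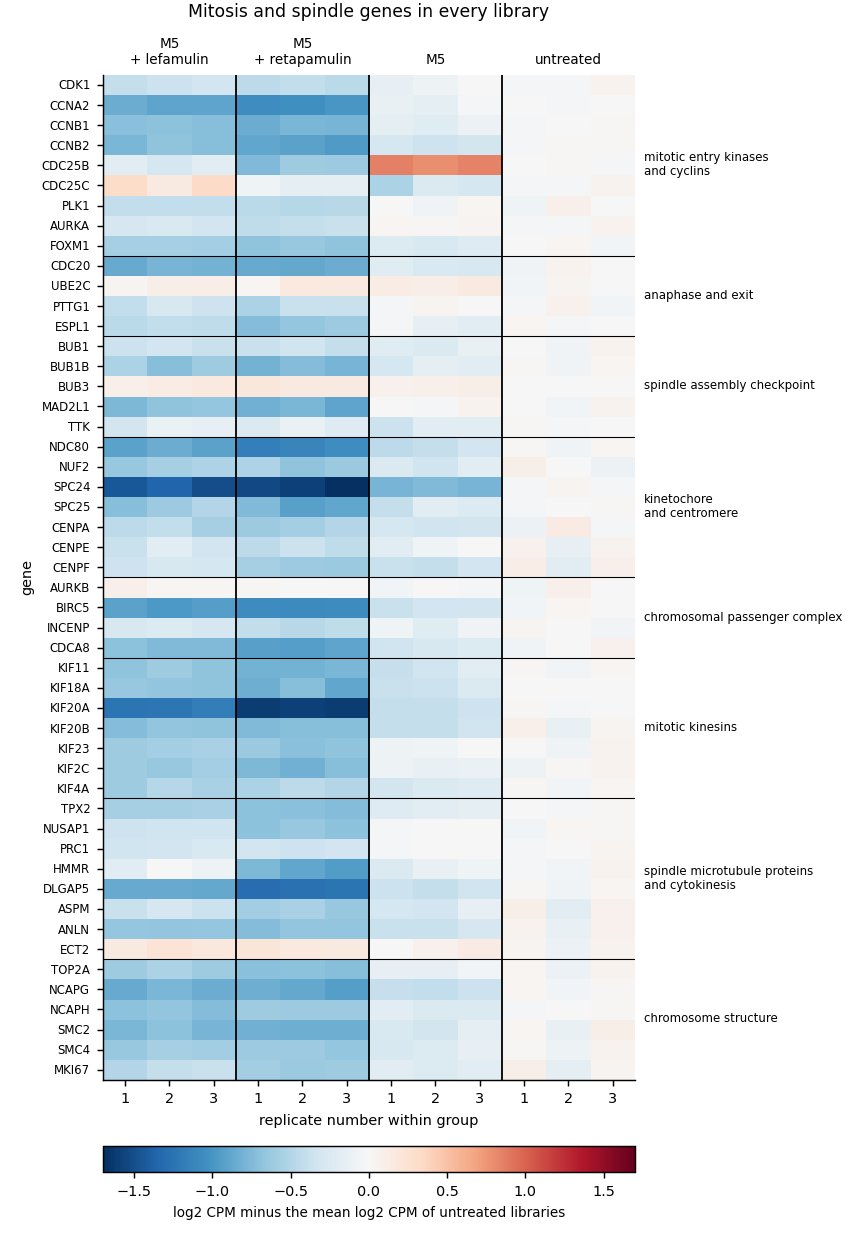
Each of the 50 genes (rows, grouped by role) in each of the 12 libraries (columns), as log2 CPM minus the mean log2 CPM of the untreated libraries. Values run from -1.74 to 0.85. Most rows darken toward blue in the M5+lefamulin and M5+retapamulin columns, CDC25B is raised in the M5 columns, and AURKB, UBE2C, BUB3 and ECT2 stay pale, with signs that turn on library totals for retapamulin against untreated cells.

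Over all tested genes edgeR called 26.9% lower and 28.3% higher with M5 against untreated. Against M5 it called 34.3% lower and 33.6% higher with lefamulin, and 38.0% and 34.1% with retapamulin. These shares are the background for all counts by role, which were not tested against them. Among the 9 kinases, cyclins and regulators of mitotic entry, 5 fell and 1 rose with M5 against untreated, and with each compound 8 fell and 1 rose against M5. The list's medians were -0.41 for lefamulin and -0.46 for retapamulin against M5. The genes that departed from the rest were the CDC25 phosphatases.

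CDC25B, the phosphatase that first activates CDK1 at centrosomes, had 211, 198 and 211 CPM in M5+lefamulin libraries, 144, 158 and 157 in M5+retapamulin libraries, 435, 418 and 432 in M5 libraries, and 240, 244 and 238 in untreated libraries. Its highest value outside the M5 group was 244 CPM in an untreated library, below all M5 values, and the 4 groups did not overlap. M5 raised it by 0.83 (SE 0.04, edgeR adjusted p = 8.26e-16) on the log2 scale. Lefamulin lowered it against M5 by a log2 change of -1.05 (SE 0.04, edgeR adjusted p = 6.36e-18), and retapamulin by -1.48 (SE 0.04, edgeR adjusted p = 6.16e-21). Both compound groups also lay below untreated cells, with log2 changes of -0.22 for lefamulin and -0.65 for retapamulin.

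CDC25C, which removes the inhibitory phosphates of CDK1 at mitotic entry, had 24.1, 21.5 and 24.2 CPM in M5+lefamulin libraries, 18.4, 17.5 and 17.4 in M5+retapamulin libraries, 13.4, 16.4 and 15.8 in M5 libraries, and 19, 19.1 and 20.1 in untreated libraries. The M5+lefamulin libraries were the highest and the M5 libraries the lowest, without overlap between any groups. It fell with M5 by a log2 change of -0.36 (SE 0.08, edgeR adjusted p = 0.000292) and rose with lefamulin against M5 by 0.62 (SE 0.08, edgeR adjusted p = 9.72e-08). The rise with retapamulin was 0.23 (SE 0.08, edgeR adjusted p = 0.0102) and was not called without M5 replicate 1 or on library totals. Averaged over all libraries, its 7.37 FPKM was the lowest of the 50 genes, close to SPC24 at 7.41. In the compound groups SPC24 was lower, at 4.58 against 8.85 FPKM with M5+lefamulin and 3.79 against 6.37 with M5+retapamulin. With M5 and in untreated cells SPC24 was higher than CDC25C.

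CCNA2, cyclin A2 of S phase and G2, had 108, 104 and 104 CPM in M5+lefamulin libraries, 93.5, 94.2 and 97.9 in M5+retapamulin libraries, 178, 173 and 189 in M5 libraries, and 194, 191 and 195 in untreated libraries. CCNB1, cyclin B1 and the main partner of CDK1 in mitosis, had 203, 205 and 201 CPM in M5+lefamulin libraries, 185, 194 and 192 in M5+retapamulin libraries, 299, 289 and 310 in M5 libraries, and 327, 334 and 338 in untreated libraries. Both compound groups lay far below M5 and untreated libraries for both cyclins. CCNA2 changed by -0.77 (SE 0.04, edgeR adjusted p = 3.65e-15) with lefamulin and -0.92 (SE 0.04, edgeR adjusted p = 9.16e-17) with retapamulin against M5, and CCNB1 by -0.56 (SE 0.03, edgeR adjusted p = 1.5e-13) and -0.65 (SE 0.03, edgeR adjusted p = 5.81e-15) in the same order. M5 against untreated gave -0.11 for CCNA2, a call that was lost without M5 replicate 1 or 2, and -0.15 for CCNB1. CCNB2, cyclin B2, averaged 130 ± 3.75 CPM in M5+lefamulin libraries, 114 ± 3.09 in M5+retapamulin libraries, 172 ± 2.92 in M5 libraries and 215 ± 4.82 in untreated libraries (SD, n = 3 each, as for all means below).

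CDK1, the kinase that the cyclins activate, had 184, 189 and 195 CPM in M5+lefamulin libraries, 180, 182 and 178 in M5+retapamulin libraries, 221, 230 and 242 in M5 libraries, and 241, 237 and 254 in untreated libraries. PLK1, the Polo kinase of mitotic entry and spindle assembly, had 147, 147 and 147 CPM in M5+lefamulin libraries, 142, 140 and 142 in M5+retapamulin libraries, 196, 188 and 200 in M5 libraries, and 186, 208 and 194 in untreated libraries. For both genes the compound groups did not overlap with M5 or untreated libraries, which overlapped each other. CDK1 fell by a log2 change of -0.29 (SE 0.04, edgeR adjusted p = 2.29e-07) with lefamulin and -0.36 (SE 0.04, edgeR adjusted p = 4.09e-09) with retapamulin against M5, and PLK1 by -0.41 (SE 0.04, edgeR adjusted p = 9.95e-10) and -0.46 (SE 0.04, edgeR adjusted p = 8.25e-11) in the same order. M5 against untreated gave -0.08 (95% interval -0.15 to -0.00) for CDK1 and -0.01 (95% interval -0.09 to 0.07) for PLK1, neither of which was called, though both were called lower on library totals.

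AURKA, the Aurora kinase of centrosomes and spindle poles, had 220, 222 and 212 CPM in M5+lefamulin libraries, 198, 202 and 205 in M5+retapamulin libraries, 272, 270 and 276 in M5 libraries, and 260, 263 and 277 in untreated libraries. FOXM1, a transcription factor of G2 and M phase genes, had 203, 204 and 202 CPM in M5+lefamulin libraries, 187, 192 and 188 in M5+retapamulin libraries, 256, 251 and 258 in M5 libraries, and 304, 307 and 293 in untreated libraries. M5 and untreated libraries overlapped for AURKA and not for FOXM1, and both genes were lower in every compound library. FOXM1 fell with M5 by a log2 change of -0.24 (SE 0.03, edgeR adjusted p = 3.17e-07), and by -0.33 with lefamulin and -0.43 with retapamulin against M5. AURKA fell by a log2 change of -0.32 (SE 0.03, edgeR adjusted p = 4.12e-09) with lefamulin and -0.44 (SE 0.03, edgeR adjusted p = 1.49e-11) with retapamulin. Its value for M5 against untreated was 0.03, not called, and turned to a called -0.09 on library totals.

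Of the 4 genes of anaphase and mitotic exit, 2 fell and 1 rose with M5, and 3 fell with each compound against M5. CDC20, the activator of the anaphase-promoting complex, had 145, 153 and 151 CPM in M5+lefamulin libraries, 146, 144 and 146 in M5+retapamulin libraries, 227, 220 and 219 in M5 libraries, and 253, 274 and 264 in untreated libraries. UBE2C, the ubiquitin-conjugating enzyme of that complex, had 213, 220 and 224 CPM in M5+lefamulin libraries, 211, 231 and 229 in M5+retapamulin libraries, 224, 223 and 230 in M5 libraries, and 199, 212 and 208 in untreated libraries. CDC20 was lower in every compound library than in any M5 library, and lower in every M5 library than in any untreated one, while UBE2C values of the 3 treated groups overlapped. CDC20 fell with M5 by a log2 change of -0.25 (SE 0.03, edgeR adjusted p = 1.54e-06), with lefamulin against M5 by -0.57 (SE 0.04, edgeR adjusted p = 4.72e-13) and with retapamulin against M5 by -0.62 (SE 0.04, edgeR adjusted p = 7.67e-14). UBE2C rose with M5 by 0.13 (SE 0.04, edgeR adjusted p = 0.0045), which was not called on library totals, and against M5 it gave -0.04 (95% interval -0.12 to 0.03) for lefamulin and -0.01 (95% interval -0.09 to 0.06) for retapamulin. On library totals UBE2C was called lower with both compounds against M5, at -0.09 for lefamulin and -0.15 for retapamulin. PTTG1, securin, which holds separase inactive, averaged 70.8 ± 3.56 CPM in M5+lefamulin libraries, 66.6 ± 4.13 in M5+retapamulin libraries, 90.5 ± 2.15 in M5 libraries and 90 ± 3.83 in untreated libraries. ESPL1, separase, which cuts cohesin at anaphase, averaged 90.4 ± 1.12 CPM in M5+lefamulin libraries, 77.2 ± 3.3 in M5+retapamulin libraries, 113 ± 6.29 in M5 libraries and 122 ± 2.78 in untreated libraries. Each of these was called lower with each compound against M5, by -0.35 and -0.44 for PTTG1 and -0.32 and -0.55 for ESPL1, lefamulin first. ESPL1 fell with M5 by a log2 change of -0.11. That call was lost with only those 2 groups fitted, without the low-count filter, and without untreated replicate 1 or M5 replicate 2 or 3. A near copy of securin, PTTG2, held at most 2 counts in a library.

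In the spindle assembly checkpoint, 3 of 5 genes fell with M5 and 3 of 5 fell with each compound against M5. BUB1B (BubR1), part of the complex that inhibits CDC20, had 58.4, 51.3 and 55.8 CPM in M5+lefamulin libraries, 48.7, 51 and 49.1 in M5+retapamulin libraries, 69.3, 76 and 75.2 in M5 libraries, and 86.2, 81.5 and 87.2 in untreated libraries. BUB3, which carries BUB1 and BubR1 to kinetochores, had 273, 281 and 289 CPM in M5+lefamulin libraries, 293, 286 and 285 in M5+retapamulin libraries, 269, 273 and 274 in M5 libraries, and 256, 258 and 256 in untreated libraries. BUB1B was lower in all compound libraries than in any M5 library, while BUB3 stayed within 256 to 293 CPM throughout. BUB1B fell by a log2 change of -0.21 (SE 0.05, edgeR adjusted p = 0.000526) with M5, and by -0.41 with lefamulin and -0.57 with retapamulin against M5. BUB3 was called higher by 0.08 (SE 0.03, edgeR adjusted p = 0.0211) with M5 and 0.08 (SE 0.03, edgeR adjusted p = 0.0197) with retapamulin against M5, and both values turned on library totals, to -0.03 and -0.05. Leaving out M5 replicate 2, M5 replicate 3 or untreated replicate 1 ended the first call and leaving out M5+retapamulin replicate 1 or M5 replicate 1 ended the second. MAD2L1 (MAD2), the checkpoint protein that captures CDC20, averaged 66.9 ± 2.65 CPM in M5+lefamulin libraries, 61.1 ± 2.48 in M5+retapamulin libraries, 109 ± 3.42 in M5 libraries and 109 ± 3.73 in untreated libraries. It fell by a log2 change of -0.71 (SE 0.04, edgeR adjusted p = 2.85e-13) with lefamulin and -0.84 (SE 0.04, edgeR adjusted p = 9.28e-15) with retapamulin against M5, the largest falls of these 5 genes. Its value with M5 was 0.01, not called, and turned to a called -0.11 on library totals. BUB1, the kinase that recruits checkpoint proteins, averaged 124 ± 2.54 CPM in M5+lefamulin libraries, 123 ± 2.59 in M5+retapamulin libraries, 139 ± 6.29 in M5 libraries and 160 ± 6.83 in untreated libraries. TTK (MPS1), the kinase that starts the checkpoint signal, averaged 70 ± 5.26 CPM in M5+lefamulin libraries, 69.8 ± 3.47 in M5+retapamulin libraries, 67.3 ± 4.61 in M5 libraries and 79.8 ± 1.13 in untreated libraries. TTK fell with M5 by a log2 change of -0.25 and was not called with either compound against M5, at 0.06 (95% interval -0.05 to 0.17) for lefamulin and 0.05 (95% interval -0.06 to 0.16) for retapamulin.

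Kinetochore and centromere genes fell with M5 in 6 of 7 cases, with lefamulin against M5 in 6 and with retapamulin against M5 in 7. NDC80, NUF2, SPC24 and SPC25 encode the 4 subunits of the NDC80 complex, the microtubule-binding core of the kinetochore, and all 4 were called lower with M5 against untreated and with each compound against M5. SPC24 had 12.6, 13.6 and 12.1 CPM in M5+lefamulin libraries, 11.8, 11.5 and 10.3 in M5+retapamulin libraries, 19.8, 20.4 and 19.9 in M5 libraries, and 33.9, 35.4 and 33.8 in untreated libraries. NDC80 had 30.5, 32.1 and 30.7 CPM in M5+lefamulin libraries, 25.8, 26.4 and 27.6 in M5+retapamulin libraries, 42.3, 43.4 and 45.8 in M5 libraries, and 58.4, 55.1 and 58.9 in untreated libraries. No pair of groups overlapped for either gene, and the M5 libraries lay far below the untreated ones for SPC24. M5 lowered SPC24 by a log2 change of -0.78 (SE 0.06, edgeR adjusted p = 1.7e-10), the largest fall with M5 among the 50 genes, and NDC80 by -0.39 (SE 0.05, edgeR adjusted p = 1.18e-07). Against M5, SPC24 fell by a log2 change of -0.65 (SE 0.07, edgeR adjusted p = 8.42e-09) with lefamulin and -0.84 (SE 0.07, edgeR adjusted p = 1.04e-10) with retapamulin, and NDC80 by -0.50 and -0.72. NUF2 fell by a log2 change of -0.26 with M5, -0.32 with lefamulin and -0.36 with retapamulin, and SPC25 by -0.27, -0.34 and -0.58. Differences between the subunits were not tested. Per length, the mRNAs of these 4 genes stood at 4.58 (SPC24), 12.7 (SPC25), 14.3 (NDC80) and 18.6 FPKM (NUF2) with M5+lefamulin. In the same order they stood at 3.79, 10.1, 11.5 and 17.1 FPKM with M5+retapamulin and 7.44, 16.5, 20.8 and 24.0 FPKM with M5. In untreated cells they stood at 13.8, 21.7, 29.7 and 31.2 FPKM. The SPC24 mRNA was thus the least abundant of the 4 in every group, and protein was not measured.

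CENPF, an outer kinetochore and nuclear matrix protein of G2 and M phase, had 330, 350 and 343 CPM in M5+lefamulin libraries, 284, 275 and 273 in M5+retapamulin libraries, 325, 318 and 337 in M5 libraries, and 454, 369 and 446 in untreated libraries. Untreated replicate 2 lay below the other untreated libraries but above all treated ones, and the M5+lefamulin and M5 libraries overlapped. CENPF fell with M5 by a log2 change of -0.37 (SE 0.05, edgeR adjusted p = 9.8e-07) and with retapamulin against M5 by -0.24 (SE 0.05, edgeR adjusted p = 0.00023), while lefamulin against M5 gave 0.06 (95% interval -0.04 to 0.17). CENPA, the centromeric histone H3 variant, averaged 43.1 ± 2.32 CPM in M5+lefamulin libraries, 40.4 ± 1.62 in M5+retapamulin libraries, 48 ± 0.528 in M5 libraries and 59.9 ± 5.22 in untreated libraries. CENPE, the kinesin that moves chromosomes to the spindle equator, averaged 68.8 ± 4.71 CPM in M5+lefamulin libraries, 63.3 ± 1.73 in M5+retapamulin libraries, 79.7 ± 4.95 in M5 libraries and 84.5 ± 6.77 in untreated libraries. CENPA fell by a log2 change of -0.16 with lefamulin, a call lost without M5+lefamulin replicate 3, and by -0.25 with retapamulin, and CENPE fell by -0.21 and -0.33 in the same order.

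RNA fell with M5, and with each compound against M5, for 3 of 4 genes of the chromosomal passenger complex. This complex corrects wrong kinetochore attachments and guides cytokinesis. AURKB, its kinase, had 194, 186 and 186 CPM in M5+lefamulin libraries, 185, 182 and 181 in M5+retapamulin libraries, 177, 181 and 181 in M5 libraries, and 173, 194 and 181 in untreated libraries. BIRC5 (survivin), which brings the complex to centromeres, had 99.2, 95.2 and 97.8 CPM in M5+lefamulin libraries, 89.1, 87.9 and 88.8 in M5+retapamulin libraries, 143, 148 and 150 in M5 libraries, and 182, 191 and 187 in untreated libraries. All AURKB values lay between 173 and 194 CPM, whereas BIRC5 was lower in every compound library than in any M5 library, and lower in every M5 library than in any untreated one. BIRC5 fell with M5 by a log2 change of -0.34 (SE 0.03, edgeR adjusted p = 7.26e-09), and by -0.60 (SE 0.04, edgeR adjusted p = 2.02e-13) with lefamulin and -0.73 (SE 0.04, edgeR adjusted p = 2.99e-15) with retapamulin against M5. AURKB was not called in any of the 6 comparisons, with -0.03 (95% interval -0.10 to 0.05) for M5 against untreated, 0.07 (95% interval -0.01 to 0.15) for lefamulin against M5 and 0.03 (95% interval -0.05 to 0.10) for retapamulin against M5, but on library totals it was called at -0.14 for M5 against untreated, -0.11 for retapamulin against M5, -0.12 for lefamulin and -0.25 for retapamulin against untreated, and 0.13 for lefamulin against retapamulin. INCENP, the scaffold of the complex, averaged 153 ± 2.3 CPM in M5+lefamulin libraries, 135 ± 2.4 in M5+retapamulin libraries, 170 ± 9.59 in M5 libraries and 184 ± 6.3 in untreated libraries. CDCA8 (borealin), which binds survivin in the complex, averaged 51.2 ± 1.12 CPM in M5+lefamulin libraries, 45.1 ± 0.804 in M5+retapamulin libraries, 70.2 ± 2.46 in M5 libraries and 85.2 ± 3.95 in untreated libraries. INCENP fell by a log2 change of -0.15 with lefamulin and -0.32 with retapamulin against M5, and CDCA8 by -0.45 and -0.64. With M5 against untreated INCENP fell by a log2 change of -0.11. That call was lost with only those 2 groups fitted and without untreated replicate 1 or M5 replicate 2.

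All 7 mitotic kinesins, microtubule motors of the spindle, fell with each compound against M5, and 6 fell with M5 against untreated. KIF20A (MKLP2), the motor that carries the passenger complex to the midzone, had 67.8, 68.6 and 70.8 CPM in M5+lefamulin libraries, 52.6, 53.3 and 52.4 in M5+retapamulin libraries, 122, 122 and 126 in M5 libraries, and 163, 158 and 160 in untreated libraries. KIF11 (Eg5), which pushes spindle poles apart, had 122, 128 and 121 CPM in M5+lefamulin libraries, 111, 112 and 114 in M5+retapamulin libraries, 149, 154 and 170 in M5 libraries, and 198, 189 and 200 in untreated libraries. The 4 groups did not overlap for either motor. KIF20A fell by a log2 change of -0.83 (SE 0.04, edgeR adjusted p = 4.3e-16) with lefamulin and -1.22 (SE 0.04, edgeR adjusted p = 2.3e-19) with retapamulin against M5, and the second of these was exceeded among the 50 genes only by CDC25B. Its fall with M5 was -0.38. KIF11 fell by a log2 change of -0.31 (SE 0.04, edgeR adjusted p = 9.47e-07) with M5, and by -0.35 with lefamulin and -0.49 with retapamulin against M5. KIF23 (MKLP1), the motor of centralspindlin, averaged 153 ± 2.85 CPM in M5+lefamulin libraries, 143 ± 3.72 in M5+retapamulin libraries, 219 ± 6.25 in M5 libraries and 228 ± 8.73 in untreated libraries. KIF2C (MCAK), which depolymerises microtubules at kinetochores, averaged 80 ± 1.91 CPM in M5+lefamulin libraries, 72 ± 2.33 in M5+retapamulin libraries, 114 ± 1.64 in M5 libraries and 122 ± 6.31 in untreated libraries. Log2 changes against M5 were -0.52 with lefamulin and -0.62 with retapamulin for KIF23, and -0.51 and -0.66 for KIF2C. With M5 against untreated, KIF23 gave -0.06, not called but a called -0.17 on library totals, and KIF2C -0.11, called in the fit of all 4 groups but not in the fit of those 2 alone. The KIF2C call was also lost without the low-count filter, without untreated replicate 2 or 3, and without M5 replicate 2 or 3. KIF18A, which damps chromosome movement, averaged 60.5 ± 0.711 CPM in M5+lefamulin libraries, 54.6 ± 3.24 in M5+retapamulin libraries, 76.2 ± 4.15 in M5 libraries and 95.8 ± 0.832 in untreated libraries. KIF20B, a motor of cytokinesis, averaged 78.2 ± 1.79 CPM in M5+lefamulin libraries, 76.2 ± 1.04 in M5+retapamulin libraries, 97.2 ± 2.59 in M5 libraries and 127 ± 9.34 in untreated libraries. KIF4A, a chromosome and midzone motor, averaged 85.1 ± 3.32 CPM in M5+lefamulin libraries, 88.4 ± 2.72 in M5+retapamulin libraries, 104 ± 3.52 in M5 libraries and 124 ± 3.47 in untreated libraries. These motors fell with M5 by a log2 change of -0.33 (KIF18A), -0.39 (KIF20B) and -0.26 (KIF4A). The retrocopy KIF4B held 15 to 46 counts, at most 1.03% of KIF4A, and KIF23-AS1 at most 1.26% of KIF23. Whether the counting used strand is not stated in these sources, so reads of a gene and its antisense partner cannot be told apart.

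Of the 8 spindle microtubule and cytokinesis genes, 5 fell with M5, 5 fell with lefamulin and 1 rose against M5, and 7 fell with retapamulin and 1 rose. TPX2, which targets Aurora A to microtubules, had 337, 337 and 339 CPM in M5+lefamulin libraries, 307, 303 and 298 in M5+retapamulin libraries, 427, 439 and 444 in M5 libraries, and 502, 490 and 503 in untreated libraries. DLGAP5 (HURP), which stabilises kinetochore fibres, had 87.4, 87.4 and 86.9 CPM in M5+lefamulin libraries, 64.3, 65.6 and 66.7 in M5+retapamulin libraries, 123, 120 and 125 in M5 libraries, and 161, 152 and 163 in untreated libraries. HMMR (RHAMM), a spindle pole and hyaluronan-binding protein, had 57, 64.4 and 60.4 CPM in M5+lefamulin libraries, 38.1, 34.8 and 33.4 in M5+retapamulin libraries, 54.4, 59 and 61.1 in M5 libraries, and 63.7, 62.4 and 67 in untreated libraries. TPX2 and DLGAP5 stepped down from group to group without overlap, whereas HMMR was lowest in the M5+retapamulin libraries, its M5 libraries lay below the untreated ones, and its M5+lefamulin values overlapped with both M5 and untreated ones. TPX2 fell by a log2 change of -0.37 (SE 0.03, edgeR adjusted p = 2.93e-11) with lefamulin and -0.53 (SE 0.03, edgeR adjusted p = 2.78e-14) with retapamulin against M5, and DLGAP5 by -0.49 (SE 0.04, edgeR adjusted p = 2.03e-11) and -0.90 (SE 0.04, edgeR adjusted p = 1.58e-16). HMMR fell with retapamulin by a log2 change of -0.72 (SE 0.06, edgeR adjusted p = 3.39e-11) and gave 0.06 (95% interval -0.05 to 0.17) with lefamulin. With M5 against untreated HMMR fell by a log2 change of -0.15, a call lost without M5 replicate 1 or untreated replicate 3. HMMR-AS1, an antisense gene, held 48 to 79 counts in M5+lefamulin, 8 to 30 in M5+retapamulin, 16 to 52 in M5 and 45 to 57 in untreated libraries, at most 3.73% of the HMMR count.

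ECT2, the exchange factor that activates RhoA for cytokinesis, had 314, 333 and 321 CPM in M5+lefamulin libraries, 327, 317 and 313 in M5+retapamulin libraries, 281, 298 and 312 in M5 libraries, and 291, 264 and 294 in untreated libraries. The compound libraries lay above the M5 and untreated ones, which overlapped each other. ECT2 was called higher with lefamulin, at 0.12 (SE 0.04, edgeR adjusted p = 0.0129), and with retapamulin, at 0.10 (SE 0.04, edgeR adjusted p = 0.0282), against M5, but the first call was lost and the second turned to -0.03 on library totals, and both were lost without M5 replicate 1. NUSAP1, which binds microtubules near chromosomes, averaged 114 ± 0.748 CPM in M5+lefamulin libraries, 90.4 ± 2.17 in M5+retapamulin libraries, 144 ± 1.27 in M5 libraries and 145 ± 4.15 in untreated libraries. PRC1, which bundles midzone microtubules, averaged 155 ± 4.99 CPM in M5+lefamulin libraries, 153 ± 1.69 in M5+retapamulin libraries, 191 ± 1.44 in M5 libraries and 192 ± 5.12 in untreated libraries. Neither NUSAP1 nor PRC1 was called with M5, though both were called lower on library totals, at -0.13 each. Against M5 NUSAP1 fell by a log2 change of -0.33 with lefamulin and -0.67 with retapamulin and PRC1 by -0.30 and -0.32. ASPM, a spindle pole protein, averaged 238 ± 9.28 CPM in M5+lefamulin libraries, 200 ± 6.99 in M5+retapamulin libraries, 254 ± 17.8 in M5 libraries and 303 ± 31.8 in untreated libraries. ANLN, the contractile ring scaffold anillin, averaged 222 ± 1.4 CPM in M5+lefamulin libraries, 218 ± 5.54 in M5+retapamulin libraries, 276 ± 10.5 in M5 libraries and 353 ± 26.2 in untreated libraries. ANLN fell by log2 changes of -0.35 with M5, -0.32 with lefamulin and -0.34 with retapamulin. ASPM fell with M5 by a log2 change of -0.26 and with retapamulin by -0.34, and was not called with lefamulin at -0.09 (95% interval -0.21 to 0.02), though on library totals it was, at -0.14. PRC1-AS1 held at most 3.0% of the PRC1 count.

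All 6 genes of chromosome structure fell with M5 and again with each compound. TOP2A, the topoisomerase that untangles sister chromosomes, had 634, 664 and 636 CPM in M5+lefamulin libraries, 591, 596 and 587 in M5+retapamulin libraries, 876, 874 and 932 in M5 libraries, and 989, 901 and 1008 in untreated libraries. MKI67 (Ki-67), the coat protein of mitotic chromosomes used to count cycling cells, had 566, 602 and 615 CPM in M5+lefamulin libraries, 530, 516 and 526 in M5+retapamulin libraries, 699, 679 and 707 in M5 libraries, and 858, 718 and 830 in untreated libraries. NCAPG, a subunit of condensin I, had 75.8, 80.2 and 76.8 CPM in M5+lefamulin libraries, 77.4, 75.1 and 71.9 in M5+retapamulin libraries, 105, 103 and 107 in M5 libraries, and 140, 133 and 139 in untreated libraries. Compound libraries were below M5 libraries for all of them, while for TOP2A untreated replicate 2 lay within the M5 range and for MKI67 it stood nearest to M5. TOP2A fell with lefamulin by a log2 change of -0.47 (SE 0.04, edgeR adjusted p = 2.75e-11) and with retapamulin by -0.60 (SE 0.04, edgeR adjusted p = 2.42e-13) against M5, and its fall with M5, -0.11, was not called without untreated replicate 3 or without M5 replicate 1 or 2. MKI67 fell by a log2 change of -0.23 (SE 0.04, edgeR adjusted p = 9.95e-05) with lefamulin and -0.41 (SE 0.04, edgeR adjusted p = 1.49e-08) with retapamulin. NCAPG fell by a log2 change of -0.39 (SE 0.04, edgeR adjusted p = 4.14e-09) with M5, and by -0.43 and -0.48 with lefamulin and retapamulin against M5. The other condensin genes, NCAPH, SMC2 and SMC4, fell by a log2 change of -0.23, -0.25 and -0.21 with M5, by -0.48, -0.51 and -0.39 with lefamulin against M5, and by -0.39, -0.58 and -0.42 with retapamulin against M5. SMC4 averaged 269 ± 7.48 CPM in M5+lefamulin libraries, 264 ± 4.02 in M5+retapamulin libraries, 353 ± 17.4 in M5 libraries and 409 ± 21.7 in untreated libraries.

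**Figure D3:**
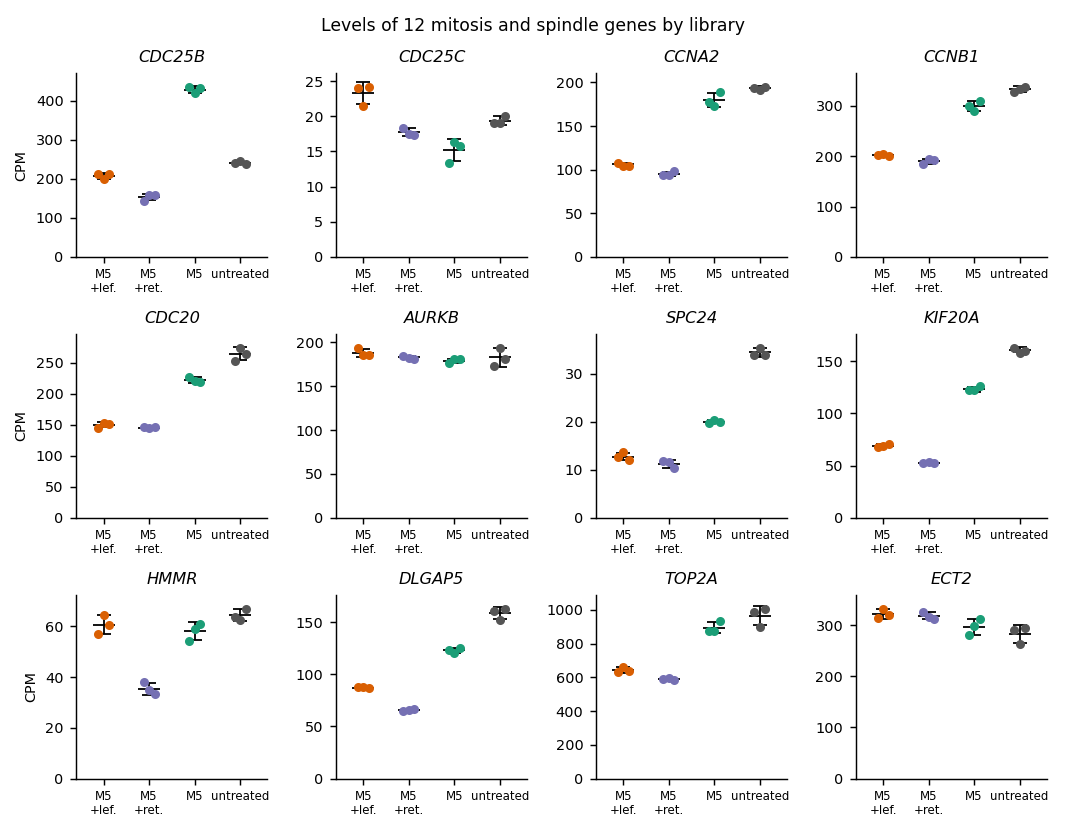
CPM of 12 members in every library (points), with the group mean and SD (bars, n = 3), for M5+lefamulin, M5+retapamulin, M5 and untreated cells from left to right; each vertical axis starts at 0. CDC25B is highest in M5, CDC25C in M5+lefamulin, HMMR is lowest in M5+retapamulin, and AURKB lies between 173 and 194 CPM in all libraries.

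The 2 compounds were compared directly, each given with M5 and with doses and times that the labels do not give. With lefamulin 29 of the 50 genes were higher than with retapamulin and 0 lower by edgeR, with 18.8% of all tested genes called higher and 21.2% lower. At an unadjusted p under 0.05, 1 gene lay on the lower side by edgeR, and DESeq2 called 2 lower. The median of the 50 was 0.12, against 0.01 over all genes. The largest differences were in HMMR at 0.77 (SE 0.06, edgeR adjusted p = 1.44e-10), CDC25B at 0.43 (SE 0.04, edgeR adjusted p = 2.77e-09) and DLGAP5 at 0.41 (SE 0.04, edgeR adjusted p = 9.61e-09). KIF20A followed at 0.39, CDC25C at 0.39 and NUSAP1 at 0.34, and the other called differences were 0.30 or less. Of the 50 genes, HMMR alone differed by more than 1.5-fold, and 5.27% of all tested genes were higher with lefamulin by that much.

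For 21 genes the compounds were not called different, which does not show that they act alike. The intervals of the log2 difference were narrow for several of them. UBE2C gave -0.03 (95% interval -0.11 to 0.04), AURKB 0.04 (95% interval -0.04 to 0.12), CDC20 0.05 (95% interval -0.03 to 0.12), PLK1 0.05 (95% interval -0.03 to 0.13) and BUB3 -0.04 (95% interval -0.10 to 0.03). On library totals AURKB, CDC20 and PLK1 were called higher with lefamulin, at 0.13, 0.14 and 0.14. NCAPH, chosen after its value was seen, stood nearest to a call on the lower side at -0.09 (95% interval -0.17 to -0.01).

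The count of 29 depends on scaling and on single libraries. It was 19 with RLE size factors and 20 with DESeq2, 44 on library totals, and 18, 18 and 19 without M5+lefamulin replicate 1, M5+retapamulin replicate 2 or M5+retapamulin replicate 3. The median over all tested genes was -0.02 with RLE and 0.10 on library totals, and the median of the 50 was then 0.09 and 0.21. Of all genes called, the share higher with lefamulin was 47.0% with TMM, 36.8% with RLE, 36.4% with DESeq2 and 72.8% on library totals.

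**Figure D4:**
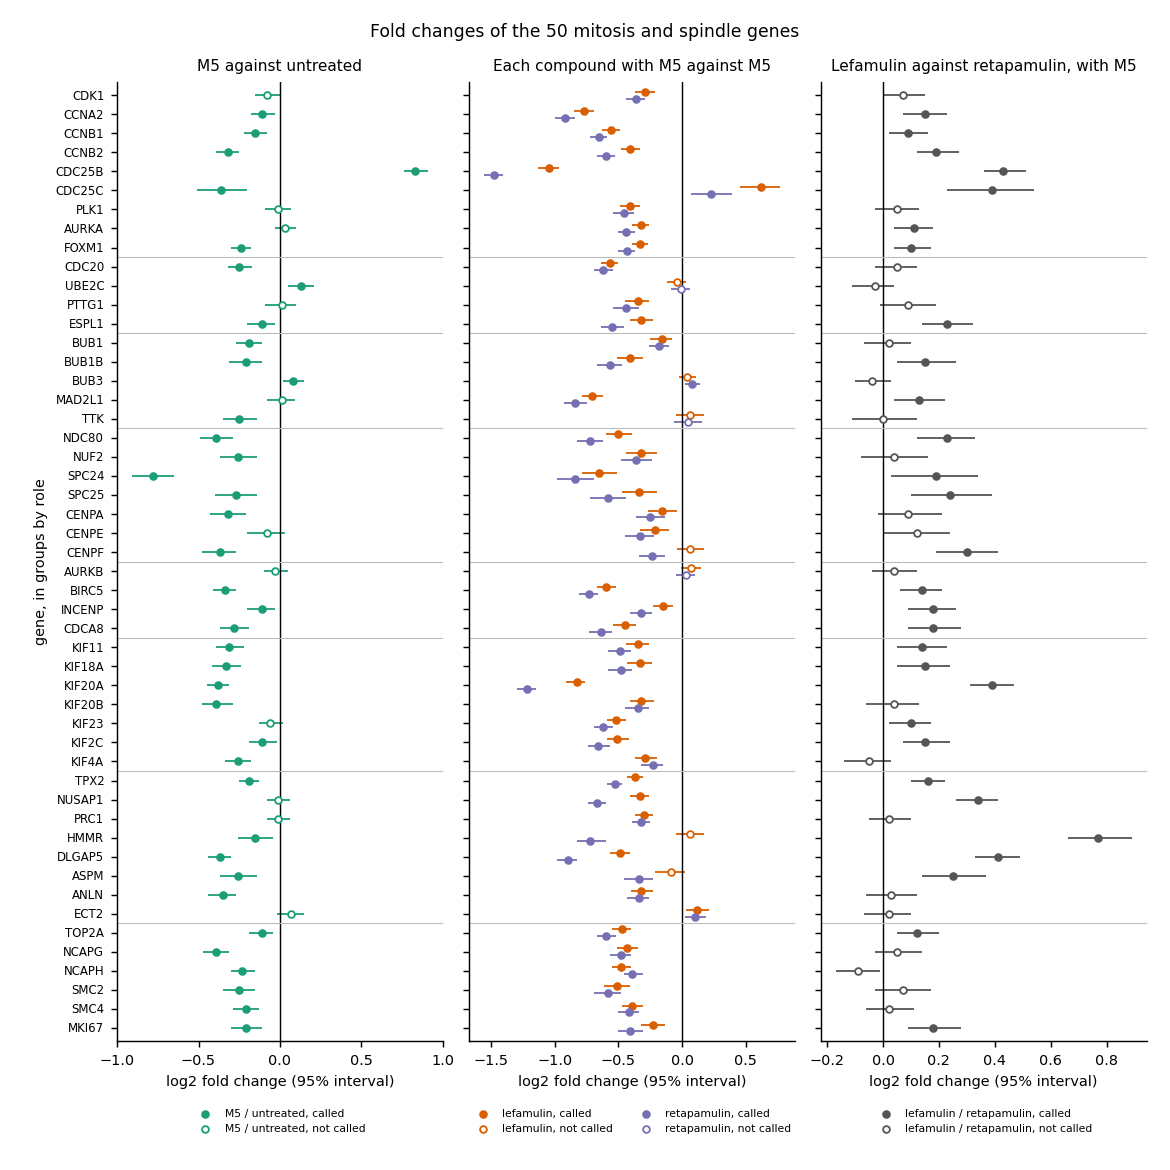
Log2 fold changes with 95% intervals for the 50 genes in groups by role, for M5 against untreated (left), each compound with M5 against M5 (middle, sharing the M5 libraries) and lefamulin against retapamulin (right). Filled points passed an adjusted p of 0.05. In the middle panel most points lie left of 0 for both compounds, CDC25C lies to the right, and the small rises of BUB3 and ECT2 with retapamulin turn on library totals.

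Set against untreated cells, M5+lefamulin had 44 of the 50 genes lower and 4 higher, with 37.1% of all genes called lower and 36.9% higher. M5+retapamulin had 45 lower and 3 higher, with 40.9% of all genes called lower and 37.6% higher. These comparisons share the untreated libraries with each other and the compound libraries with those above. The medians of the 50 were -0.57 and -0.67, and 22 genes (44.0%) with lefamulin and 34 (68.0%) with retapamulin were lower by more than 1.5-fold, against 18.9% and 24.2% of all tested genes. The deepest falls were in SPC24, at -1.43 (SE 0.07, edgeR adjusted p = 9.77e-16) with lefamulin and -1.62 (SE 0.07, edgeR adjusted p = 9.8e-17) with retapamulin, and KIF20A, at -1.22 (SE 0.04, edgeR adjusted p = 9.55e-20) and -1.61 (SE 0.04, edgeR adjusted p = 4.31e-22). DLGAP5, NDC80, BIRC5 and CCNA2 also fell past 2-fold with retapamulin, by a log2 change of -1.27, -1.11, -1.07 and -1.02. These 6 of the 50 are no larger a share than the 14.4% of all tested genes that fell past 2-fold in that comparison. The rises were UBE2C, BUB3 and ECT2 with both compounds and CDC25C with lefamulin, at most 0.26, and on library totals no rise was called, UBE2C and BUB3 turned negative with both compounds and ECT2 with retapamulin, and 47 genes were lower with lefamulin and 49 with retapamulin. Of all 14207 tested genes, 6677 were lower on totals with lefamulin and 7657 with retapamulin.

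By their medians, members with TTTGAA in the last 60 bases before a start did not fall further against M5 than those without it. Against M5 the 21 genes with it had a median of -0.33 with lefamulin and -0.48 with retapamulin, and the 22 matched genes without it -0.43 and -0.52. Against untreated cells the medians with M5 were -0.26 and -0.17 in the same order. The 22 genes include some with the variant TTTAAA in that stretch, such as CCNB1 and KIF20A. Other forms of the CHR were not searched in any of them, CCNA2 included. Genes with TTTGAA anywhere in a window had medians of -0.33 with lefamulin and -0.48 with retapamulin against M5, and those without -0.51 and -0.65. Genes with TTTAAA in the last 60 bases had -0.35 and -0.65, and those without -0.34 and -0.48. These are descriptions of overlapping ranges, with no test.

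Of 101 further mitosis genes, all tested, 65 fell and 11 rose with M5 (median -0.17), 71 fell and 9 rose with lefamulin against M5 (median -0.23), and 75 fell and 11 rose with retapamulin against M5 (median -0.34). Over all tested genes, 26.9% were called lower and 28.3% higher with M5. Against M5 these shares were 34.3% and 33.6% with lefamulin and 38.0% and 34.1% with retapamulin. CENPM, a centromere protein, averaged 5.31 ± 0.109 CPM in M5+lefamulin, 4.64 ± 0.207 in M5+retapamulin, 14.3 ± 1.25 in M5 and 20.8 ± 1.31 in untreated libraries. CDC25A, the third CDC25 phosphatase, averaged 34.4 ± 1.52 CPM in M5+lefamulin, 35.1 ± 2.12 in M5+retapamulin, 74.3 ± 1.41 in M5 and 52.3 ± 1.07 in untreated libraries. Like CDC25B, CDC25A was raised by M5, by 0.51 (SE 0.05, edgeR adjusted p = 1.03e-09), and lowered by lefamulin (-1.11) and retapamulin (-1.08) against M5. CENPI, a centromere protein that went the other way, rose by 0.99 with lefamulin and 0.84 with retapamulin (SE 0.05 each), to 85.9 ± 6.3 CPM and 77.4 ± 2.45 CPM, against 43.2 ± 0.923 CPM in M5.

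All 40 DNA replication genes fell with each compound against M5, with medians of -0.93 for lefamulin and -1.05 for retapamulin, while with M5 against untreated 27 fell and 3 rose (median -0.19). Of all tested genes, 34.3% fell with lefamulin and 38.0% with retapamulin against M5. With M5 against untreated, 26.9% of them fell and 28.3% rose. CCNE2, cyclin E2, averaged 8.56 ± 0.579 CPM in M5+lefamulin, 8.11 ± 1.72 in M5+retapamulin, 34.3 ± 1.7 in M5 and 33.4 ± 1.28 in untreated libraries. MCM6, a subunit of the replicative helicase, averaged 47.2 ± 2.82 CPM in M5+lefamulin, 42.8 ± 1.93 in M5+retapamulin, 153 ± 4.73 in M5 and 183 ± 5.3 in untreated libraries. CCNE1, cyclin E1, rose with M5 by 0.57 and fell with lefamulin by a log2 change of -2.01 against M5.

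**Figure D5:**
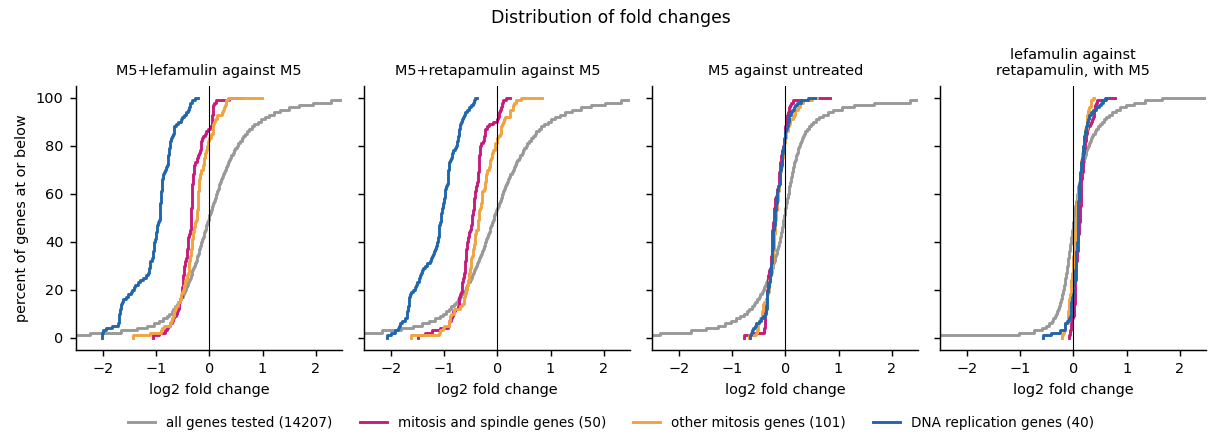
Cumulative distributions of log2 fold changes (horizontal axis) as percent of genes at or below each value, for all 14207 tested genes, the 50 mitosis and spindle genes, 101 other mitosis genes and 40 DNA replication genes. The replication curve lies farthest left for both compounds against M5, with medians of -0.93 and -1.05, against -0.34 and -0.47 for the 50 genes.

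Of 24 genes that encode regulators of mitotic gene transcription, 8 fell and 4 rose with M5, 15 fell and 6 rose with lefamulin against M5, and 16 fell and 7 rose with retapamulin against M5. Over all tested genes, the shares called lower and higher were 26.9% and 28.3% with M5. Against M5 they were 34.3% and 33.6% with lefamulin and 38.0% and 34.1% with retapamulin. The list was not tested against these shares. CDKN1A, which encodes the CDK inhibitor p21, averaged 935 ± 11.7 CPM in M5+lefamulin, 1242 ± 29.9 in M5+retapamulin, 90.4 ± 2.05 in M5 and 28.1 ± 0.462 in untreated libraries. It rose by 1.69 with M5, by 3.37 with lefamulin against M5 and by 3.78 with retapamulin against M5 on the log2 scale (edgeR adjusted p = 1.9e-22, 1.85e-28 and 1.77e-29). E2F1, an activator of S phase genes, averaged 12.5 ± 0.88 CPM in M5+lefamulin, 11.5 ± 1 in M5+retapamulin, 52.8 ± 2.05 in M5 and 58.4 ± 3.15 in untreated libraries. MYBL2 (B-MYB), which joins the MuvB complex at mitotic promoters, averaged 127 ± 1.26 CPM in M5+lefamulin, 116 ± 4.86 in M5+retapamulin, 242 ± 3.13 in M5 and 278 ± 11.4 in untreated libraries. E2F1 fell by log2 changes of -2.08 with lefamulin and -2.19 with retapamulin against M5, and MYBL2 by -0.93 and -1.06. RBL1 and RBL2, which encode the p107 and p130 proteins of the DREAM repressor, fell by log2 changes of -0.37 and -0.25 with lefamulin and by -0.42 and -0.30 with retapamulin against M5.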

How the data were processed

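Total RNA libraries of HaCaT cells were sequenced, and per the submitters' processing notes HISAT2 and HTSeq were used; for versions, genome build and strand setting, nothing is given in the sources used here. The authors deposited gene counts with FPKM beside them, 1 column of each per library. For 20422 genes the deposited FPKM equalled count over a gene length and the library's total, with a largest coefficient of variation of 3.9e-07. The counts were tested with edgeR 4.0.16 in R 4.3.3 (quasi-likelihood test, TMM, all 4 groups in 1 fit, no covariate), after filterByExpr kept 14207 of 22545 genes, and p-values were adjusted over all of them by Benjamini and Hochberg. SEs and 95% intervals come from the same fit. Library totals of 35110519 to 37520999 counts, with a biological coefficient of variation of 0.0449, set the precision. Replicates of a group differed by more than sampling noise, with chi-square per degree of freedom of 2.776 to 8.842, so none was counted as a repeat deposit. DESeq2 1.42.0 and limma 3.58.1, with limma run on log2 FPKM with a pseudocount of 1 or 0.1, were alternatives, beside other scalings, filters, a replicate block, fold minimums and leaving out each library. The scripts were tested on simulated counts.

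Values in every library are given for 14 reference members and for the 3 members with the largest called rise and fall in M5 against untreated, each compound against M5, and lefamulin against retapamulin, if a group averaged at least 1 CPM. Of the other lists up to 3 called genes in each direction per comparison could be named, with 6 regulators, of which 1 is not reported here. The members and lists were chosen with earlier results of these data known. Promoter windows come from RefSeq on GRCh38.p14.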

Additional observations from a re-analysis of the deposited data

How the results depend on the processing

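Over 300 member results (50 genes in 6 comparisons) and 5400 values under alternatives, 4686 kept their direction and their side of the threshold, 545 lost a call, 116 gained one and 53 turned with a call on at least 1 side. Of the 545 lost calls, 171 came from the 1.5-fold minimum and 243 from the 2-fold minimum, which call fewer genes by construction. Values not called on either side were not counted as turned. Nothing in the labels says that libraries with the same number were paired, and with 3 libraries per group the values cannot settle it. Between groups, libraries with different numbers had deviations that correlated at -0.271 to 0.26 (median 0.00661), over 0.1 in 5 of 36 pairs. Deviations of libraries with the same number correlated at -0.144 to 0.184 (median -0.0344), over 0.1 in 3 of 18 pairs, and with the replicate block the counts of members lower and higher were 36 and 3 (M5 against untreated), 41 and 2 (lefamulin against M5), 44 and 3 (retapamulin against M5), 0 and 29 (lefamulin against retapamulin), 44 and 4 and 45 and 3 (lefamulin and retapamulin against untreated), with no member call changed.

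All 53 turned values arose on library totals or with limma on log2 FPKM, which is also scaled by totals. On totals and under all 3 FPKM settings they were BUB3 at -0.03, MAD2L1 at -0.11 and AURKA at -0.09 (-0.08 with a pseudocount of 1) for M5 against untreated, BUB3 at -0.05, AURKB at -0.11 and ECT2 at -0.03 for retapamulin against M5, UBE2C at -0.08, BUB3 at -0.04 and AURKB at -0.12 for lefamulin against untreated, and UBE2C at -0.14, BUB3 at -0.09, AURKB at -0.25 and ECT2 at -0.08 for retapamulin against untreated. PTTG1 turned to -0.11 for M5 against untreated on totals only.

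The count of members higher became 1 for M5 against untreated and for lefamulin against M5, and 0 for retapamulin against M5 and for both compounds against untreated, on totals and under each FPKM setting. For lefamulin against retapamulin the higher count was 19 with RLE and 44 on totals, and the lower count was 1 with RLE, 2 with DESeq2 and 1 with only these 2 groups fitted. With a minimum of 1.5-fold, higher and lower counts were 1 and 1 (M5 against untreated), 1 and 6 (lefamulin against M5), 0 and 17 (retapamulin against M5), 1 and 0 (lefamulin against retapamulin), 0 and 22 (lefamulin against untreated) and 0 and 34 (retapamulin against untreated). With 2-fold they were 0 and 0, 0 and 1, 0 and 2, 0 and 0, 0 and 2, and 0 and 6 in the same order. Of all 14207 tested genes, 1216, 2312, 2541, 748, 2917 and 3157 were higher past 1.5-fold in that order. Past 1.5-fold, 1406, 1722, 2519, 251, 2682 and 3435 of them were lower. Past 2-fold, 720, 1291, 1393, 357, 1759 and 1895 of them were higher. Lower past 2-fold were 785, 697, 1231, 105, 1355 and 2051 of them. Leaving out a library gave ranges of 2 to 4 higher and 31 to 38 lower (M5 against untreated), 1 to 4 and 40 to 41 (lefamulin against M5), 0 to 3 and 44 to 44 (retapamulin against M5), 18 to 27 and 0 to 1 (lefamulin against retapamulin), 3 to 5 and 43 to 45 (lefamulin against untreated) and 2 to 3 and 45 to 45 (retapamulin against untreated). The causes were not tested, except that a fold minimum calls fewer genes by construction. The smallest member count in a library was 354, so depth limits the 50 genes little.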
